A study of Arabidopsis thaliana with 39 samples.

Results

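The *SULTR* genes of *Arabidopsis thaliana* encode the plant's sulfate transporters, and their transcripts were followed here in rosettes of plants that lack or overexpress *SLIM1*, the transcription factor that coordinates the response to sulfur deficiency. The members were 10 named genes, taken by their gene identifiers from a count table of 33110 genes. They were *SULTR1;1* (AT4G08620), *SULTR1;2* (AT1G78000), *SULTR2;1* (AT5G10180), *SULTR2;2* (AT1G77990), *SULTR3;1* (AT3G51895), *SULTR3;3* (AT1G23090), *SULTR3;4* (AT3G15990), *SULTR3;5* (AT5G19600), *SULTR4;1* (AT5G13550) and *SULTR4;2* (AT3G12520). Enough reads for a test were found for 9 of the 10.

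The series holds 39 libraries of polyA RNA in 13 groups of 3 individual rosettes. Rosettes were harvested at 30, 37 and 44 days after sowing (DAS) from plants given sufficient nutrients, grown on agar and then in soil from 12 DAS, with the stalk and the reproductive tissue taken off before harvest. At each of the 3 ages the groups were Col-0, the wild type, *slim1-cr* (labelled slim1KO, genotype cr12), a CRISPR/Cas9 line with a deletion in *SLIM1* that takes in its DNA-binding regions, and 2 independent overexpression lines, *35S::SLIM1* #17 and *35S::SLIM1* #25 (labelled SLIM1OX). A line with the empty vector pH7WG2 (EV) was sampled at 30 DAS only. The overexpression lines carry the *SLIM1* coding sequence behind the CaMV 35S promoter, which drives it in most cells, and were T2 plants picked as homozygous for the transgene. Each line is a single line, and the labels give hygromycin selection for the overexpression seeds only, so in these groups the transgene and the selection cannot be told apart.

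Sulfate transporters fall into groups with separate tasks. Group 1 holds high-affinity carriers, of which *SULTR1;1* and *SULTR1;2* take up sulfate from the soil through the root surface. Group 2 holds low-affinity carriers of the vascular tissue, which load and move sulfate between root and shoot. Group 3 members have been placed in the chloroplast envelope, and *SULTR3;5* raises transport by *SULTR2;1* in roots. Group 4 carriers release stored sulfate from the vacuole. Several of these genes are known to rise when sulfate is short, and *SULTR2;1* is also a target of the microRNA miR395.

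Library totals ran from 38352119 to 46190529 counts with a median of 45489088. *SLIM1* (AT1G73730) was counted at 19.7, 19.8 and 18.1 CPM (counts scaled to a common library total) in the Col-0 replicates at 30 DAS and at 1.67, 1.72 and 1.84 CPM in *slim1-cr*. It reached 162, 149 and 141 CPM in *35S::SLIM1* #17 and 82.3, 88.03 and 111 CPM in *35S::SLIM1* #25 at that age, where transgene and endogenous transcripts are counted together, and all libraries of these lines lay above those of Col-0. The group means at 44 DAS were 19.4 CPM in Col-0, 0.892 in *slim1-cr*, 353 in line #17 and 293 in line #25. The labelled tissue was checked with marker genes. The 6 mesophyll markers summed to 8503 to 66584 CPM per library and the 7 phloem markers to 826 to 1471 CPM, while 5 of 6 root markers stayed at or below 0.414 CPM and the 4 seed storage genes summed to at most 6.28 CPM. The root marker *BGLU23*, which leaves can also express, reached 89.9 CPM. The 10 flower organ markers summed to 3.29 to 61.2 CPM, and 8 libraries lay above 30 CPM: Col-0 replicate 1, EV replicates 2 and 3 and *slim1-cr* replicate 3 at 30 DAS, and Col-0 replicate 1, *slim1-cr* replicate 2 and *35S::SLIM1* #25 replicates 2 and 3 at 37 DAS. Each comparison was therefore run with and without them, except those of genotypes at 44 DAS, where no library lay above 30 CPM. That run left 1 library each of *35S::SLIM1* #25 at 37 DAS and of EV. For these groups it gives an effect size only. In whole rosettes, fewer cells of a type and less RNA per cell cannot be told apart.

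The microRNA target site was read from the genome because it sets *SULTR2;1* apart from the other members. The mature miR395 sequences are shown 5′ to 3′ from the RefSeq annotation of TAIR10.1, written with T, with bases 2 to 8, the seed, in capitals. All 6 loci share the seed and fall into 2 forms.
miR395a, miR395d and miR395e: cTGAAGTGtttgggggaactc
miR395b, miR395c and miR395f: cTGAAGTGtttggggggactc
In the best-matching transcript sites for the first form, capitals mark exact complements of the microRNA bases. Every other base, also a T opposite a G, was counted as a mismatch.
*SULTR2;1*, chr5:3193268-3193288, plus strand: aAGTTCtCCCAAACACTTCAa
*APS4*, chr5:17591121-17591141, minus strand: GAGTTCCtCCAAACACTTCAt
*APS1*, chr3:8113164-8113184, plus strand: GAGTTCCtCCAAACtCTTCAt
*APS3*, chr4:8414958-8414978, minus strand: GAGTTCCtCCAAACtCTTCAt
All of these sites lay in coding sequence. The *SULTR2;1* site had 3 mismatches, none of them in the seed, and the site in *APS4*, which encodes an ATP sulfurylase of the step that activates sulfate, had 2. The *APS1* and *APS3* sites had 3 mismatches with 1 in the seed. Of 31346 genes searched, 8 held a site with 3 or fewer mismatches. The best sites of the other 9 *SULTR* genes had 7 to 9. The rows of all 6 miR395 precursors held 0 counts in the polyA libraries, so the microRNA itself was not measured.

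The 300 bases before each annotated gene start were searched on both strands for GAGAC (reverse complement GTCTC), the core of the sulfur-responsive element, and ATGTA (reverse complement TACAT), which begins the binding site known for EIN3, a relative of SLIM1. GAGAC was found for 1 of the 10 members, *SULTR3;1*, against 29.97% of 27443 genes. ATGTA was found for 8 of 10, against 58.9% of genes, most often in *SULTR1;2* with 7 matches, and was not found for *SULTR3;4* and *SULTR4;2*. The windows of the members with the highest level, the deepest fall below Col-0 in the overexpression lines at 44 DAS and the widest gap in *slim1-cr* at that age are printed 5′ to 3′ on the strand of the gene, with ATGTA or TACAT in capitals.
*SULTR2;1*, chr5:3192717-3193016, plus strand: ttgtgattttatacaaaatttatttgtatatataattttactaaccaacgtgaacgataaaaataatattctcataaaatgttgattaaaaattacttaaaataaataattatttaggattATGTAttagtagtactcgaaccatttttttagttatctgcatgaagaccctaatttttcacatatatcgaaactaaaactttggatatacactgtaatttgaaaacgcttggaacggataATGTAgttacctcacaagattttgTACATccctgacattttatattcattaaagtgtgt
*SULTR3;5*, chr5:6617048-6617347, minus strand: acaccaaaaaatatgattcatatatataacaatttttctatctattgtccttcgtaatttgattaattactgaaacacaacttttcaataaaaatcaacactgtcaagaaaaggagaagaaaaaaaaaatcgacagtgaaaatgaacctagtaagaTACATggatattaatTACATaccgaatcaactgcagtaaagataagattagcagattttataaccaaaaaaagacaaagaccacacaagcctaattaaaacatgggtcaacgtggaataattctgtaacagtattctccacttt
*SULTR4;1*, chr5:4359693-4359992, minus strand: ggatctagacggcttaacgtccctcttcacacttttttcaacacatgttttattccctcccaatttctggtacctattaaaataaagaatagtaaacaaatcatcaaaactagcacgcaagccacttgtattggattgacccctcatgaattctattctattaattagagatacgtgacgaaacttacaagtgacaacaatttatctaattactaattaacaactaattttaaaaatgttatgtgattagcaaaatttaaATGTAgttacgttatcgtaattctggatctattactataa
They held 3, 2 and 1 matches, and none held GAGAC. A match is a stretch of letters and not a binding site.

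Levels of different genes were compared as CPM per kb of exon. In Col-0 at 30 DAS *SULTR2;1*, the low-affinity vascular carrier, had the highest level at 59.8 ± 5.07 CPM per kb (mean ± SD, n = 3), which was 43.96% of the summed level of the 10 genes. The group 3 genes *SULTR3;1* and *SULTR3;3* followed at 22.3 ± 2.18 and 17.5 ± 2.71 CPM per kb. The vacuolar carrier *SULTR4;1* stood at 14.4 ± 0.976 CPM per kb and its partner *SULTR4;2* at 3.07 ± 0.569. Between them lay *SULTR2;2* at 9.08 ± 0.534, *SULTR3;5* at 4.67 ± 0.225 and *SULTR3;4* at 3.38 ± 0.446 CPM per kb. The root uptake carriers closed the order, with *SULTR1;2* at 1.75 ± 0.182 CPM per kb and *SULTR1;1* at 0. Neighbours in this order had overlapping libraries for *SULTR3;1* and *SULTR3;3*, for the latter and *SULTR4;1*, and for *SULTR3;4* and *SULTR4;2*, and were apart elsewhere. The order was the same with coding length, with RLE factors or with library totals alone. With coding length, which for *SULTR1;2* is 2117 bases against 4193 bases of exon over its 7 annotated transcripts, the level of that gene was 3.48 CPM per kb and overlapped with *SULTR4;2*, while *SULTR3;3* and *SULTR4;1* no longer overlapped.

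**Figure D1:**
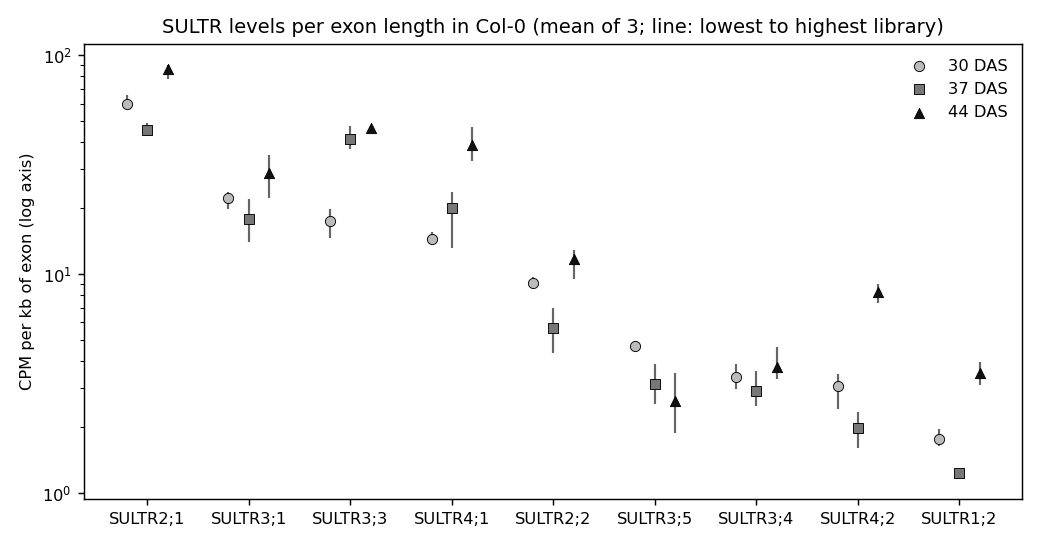
Level of the sulfate transporter genes other than *SULTR1;1* in Col-0 rosettes as CPM per kb of exon on a log axis, with 1 marker per age for the mean of 3 libraries and a bar from the lowest to the highest library. *SULTR2;1* lies highest at all 3 ages, and *SULTR1;1*, which has no reads in Col-0, is not drawn.

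The summed level of the 10 genes in Col-0 was 136, 139 and 229.8 CPM per kb at 30, 37 and 44 DAS. At 44 DAS it was 199 in *slim1-cr*, 158 in *35S::SLIM1* #17 and 171 in *35S::SLIM1* #25. The share of *SULTR2;1* in that sum was 37.4% in Col-0, 47.9% in *slim1-cr*, 33.05% in line #17 and 30.3% in line #25 at 44 DAS. At 30 DAS the shares of all 5 genotypes lay between 42.3% and 48.96%.

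Genotypes were compared with Col-0 of the same age, where a gene was called at an adjusted p under 0.05 over all genes tested. The comparisons of 1 age share the same 3 Col-0 libraries. In EV no member was called, in a comparison where 0% of all 20274 genes were. There 0 of the 9 members and 1721 of all genes had an unadjusted p under 0.05, and DESeq2 also called no member. In *slim1-cr* 2 of 9 members were called at 30 DAS, 1 higher and 1 lower (background of all genes tested 4.75% with 2.63% higher and 2.12% lower), 3 at 37 DAS, all higher (background 5.54% with 1.4% higher and 4.14% lower), and 2 at 44 DAS, both lower (background 10.2% with 6.21% higher and 3.97% lower). In *35S::SLIM1* #17 the counts were 2 lower at 30 DAS (background 6.95% with 3.79% higher and 3.17% lower), 4 higher and 1 lower at 37 DAS (background 36.8% with 19.8% higher and 17% lower) and 4 lower at 44 DAS (background 40.4% with 19.8% higher and 20.6% lower). In *35S::SLIM1* #25 no member was called at 30 DAS (background 6.38% with 3.55% higher and 2.83% lower), and DESeq2 called none. In that comparison 4 of 9 members and 4802 of all 20274 genes had an unadjusted p under 0.05. Line #25 had 3 members higher and 1 lower at 37 DAS (background 22.3% with 12.5% higher and 9.74% lower) and 1 higher and 4 lower at 44 DAS (background 46.1% with 22.8% higher and 23.2% lower). At 44 DAS the 4 of 9 in line #17 and the 5 of 9 in line #25 were shares close to those of all genes and so tell nothing particular to the family. The libraries of the 2 groups did not overlap for any of the called members, nor for some members that were not called. The share of all genes without overlap was not counted, so this lends the calls no added weight.

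**Figure D2:**
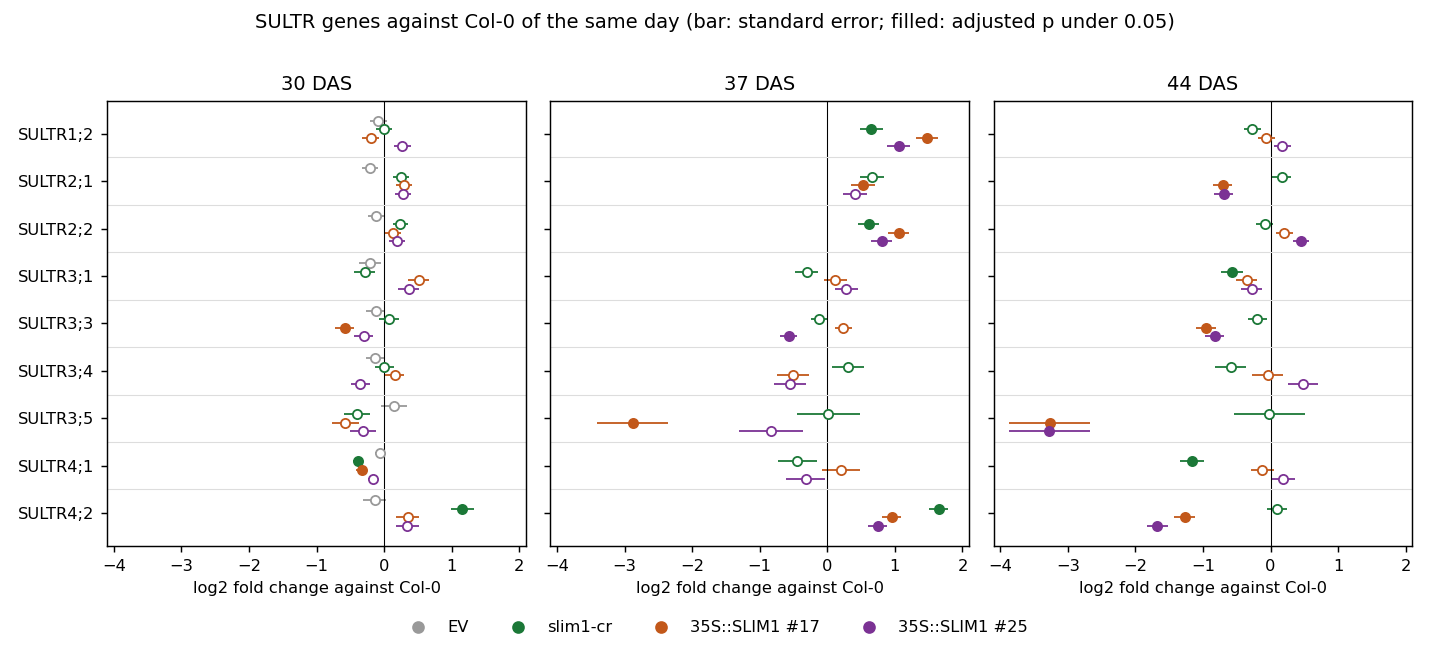
Log2 fold change of the 9 tested sulfate transporter genes against Col-0 of the same age, with the standard error of the edgeR fit as bars, filled markers at an adjusted p under 0.05 and open markers otherwise. *SULTR3;5* lies near -3 in both overexpression lines at 44 DAS, and *SULTR4;2* is above 0 in *slim1-cr* at 30 and 37 DAS.

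*SULTR1;1*, a high-affinity root carrier, was represented by 1 read in all 39 libraries. The limit that a count of 0 allows, 3 counts, corresponds to 0.0591 to 0.0878 CPM per library, so its level in rosettes was not detectable at this depth. Its relative *SULTR1;2*, the main root uptake carrier, was read in every library. At 37 DAS it stood at 5.18, 5.39 and 4.89 CPM in Col-0 and at 18.5, 12.2 and 12.3 CPM in *35S::SLIM1* #17 (log2FC 1.48 ± 0.17, adjusted p = 0.0001802). The replicates of line #25 had 10.3, 10.7 and 11.6 CPM (log2FC 1.06 ± 0.17, adjusted p = 0.00127) and those of *slim1-cr* 7.65, 7.505 and 9.43 CPM (log2FC 0.65 ± 0.17, adjusted p = 0.0473). All 9 libraries of the 3 altered genotypes lay above the 3 of Col-0 at that age. In *slim1-cr* the call was lost without any 1 of the 6 libraries (log2FC 0.54 to 0.71, adjusted p 0.0607 to 0.169), and without the libraries high in flower organ markers, when libraries were scaled by their totals alone, without a count filter and when only the 2 groups compared were fitted (adjusted p 0.0528 to 0.154). Leaving out the libraries high in flower organ markers left 1 library of line #25, where the log2FC was 0.97.

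At 30 DAS the same gene had 6.898, 8.24 and 6.94 CPM in Col-0 and at 44 DAS 12.99, 16.7 and 14.9 CPM, and no genotype was called at either age. Col-0 at 37 DAS was its lowest group of the 13 and did not overlap with the next. Its highest group, line #25 at 44 DAS, had a mean 3.17 times as high.

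*SULTR2;1* moves sulfate in the phloem and xylem parenchyma. In Col-0 its libraries held 145, 146 and 168 CPM at 30 DAS, 114, 109 and 126 CPM at 37 DAS and 198, 231 and 230.5 CPM at 44 DAS. At 37 DAS *35S::SLIM1* #17 was higher with 175, 140.0 and 188 CPM (log2FC 0.53 ± 0.18, adjusted p = 0.0408). At 44 DAS both lines were lower, line #17 with 149, 133 and 117 CPM (log2FC -0.71 ± 0.14, adjusted p = 0.00279) and line #25 with 143, 147 and 109 CPM (log2FC -0.69 ± 0.14, adjusted p = 0.00257). All 6 of these libraries lay below the 3 of Col-0, while *slim1-cr* had 225, 261 and 245 CPM and was not called (log2FC 0.17 ± 0.14, adjusted p = 0.395). The call at 37 DAS was lost without any 1 of 5 of the 6 libraries (*35S::SLIM1* #17 37 DAS replicates 1 and 3 and Col-0 37 DAS replicates 1, 2 and 3, log2FC 0.45 to 0.59, adjusted p 0.0652 to 0.115), and without the libraries high in flower organ markers and when libraries were scaled by their totals alone (adjusted p 0.0514 to 0.0595). The calls at 44 DAS held in every alternative run.

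At 37 DAS the *slim1-cr* libraries held 203, 131 and 222 CPM of this gene, all above Col-0, but missed the threshold (log2FC 0.66 ± 0.18, adjusted p = 0.0577). The gene passed there with DESeq2 (adjusted p = 0.00735), with all 13 groups in 1 fit (adjusted p = 0.0113) and without *slim1-cr* 37 DAS replicate 2 (adjusted p = 0.0141). Line #25 at 37 DAS also lay above Col-0 in all libraries without being called. It passed with all 13 groups in 1 fit (adjusted p = 0.0383) and with only the 2 groups compared (adjusted p = 0.0499). At 30 DAS no genotype was called against Col-0. With EV in its place *slim1-cr*, line #17 and line #25 passed (log2FC 0.46, 0.50 and 0.50, adjusted p = 0.0411, 0.0153 and 0.0279). The 7 phloem markers summed to 1119 to 1454 CPM in Col-0, 1396 to 1457 in line #17 and 1448 to 1471 in line #25 at 44 DAS. In each line 1 of the 7 was called higher and 1 lower. Of all genes 19.8% were higher and 20.6% lower in line #17, and 22.8% and 23.2% in line #25. Of the 5 xylem markers, *XCP1* and *XCP2* were called lower in each line at that age, where 20.6% and 23.2% of all genes were. The other 3, *IRX1*, *IRX3* and *IRX5*, were not called and had log2FC above 0, from 0.05 to 0.27 in line #17 and from 0.73 to 1.01 in line #25. Their part in the level of the gene was not tested.

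*SULTR2;2*, the other low-affinity carrier of group 2, lies next to *SULTR1;2* on chromosome 1 (29317767-29323352, minus strand) and its level moved with that gene over the groups (r = 0.85 over the 13 group means). At 37 DAS it was at 16.3, 13.1 and 10.2 CPM in Col-0, 22.2, 20.2 and 18.9 CPM in *slim1-cr* (log2FC 0.61 ± 0.15, adjusted p = 0.0464), 31.2, 25.4 and 25.5 CPM in line #17 (log2FC 1.06 ± 0.15, adjusted p = 0.0007201) and 23.5, 22.01 and 24.5 CPM in line #25 (log2FC 0.802 ± 0.15, adjusted p = 0.00405). Again every library of the 3 altered genotypes was above Col-0. In *slim1-cr* the call was lost without any 1 of 5 of the 6 libraries (Col-0 37 DAS replicates 2 and 3 and *slim1-cr* 37 DAS replicates 1, 2 and 3, log2FC 0.45 to 0.67, adjusted p 0.0762 to 0.162), and without the libraries high in flower organ markers, when libraries were scaled by their totals alone, without a count filter and when only the 2 groups compared were fitted (adjusted p 0.05004 to 0.0965). At 44 DAS line #25 was higher with 36.9, 37.1 and 35.6 CPM against 22.1, 29.9 and 30.1 CPM (log2FC 0.45 ± 0.12, adjusted p = 0.01298), while line #17 had 30.5, 32.1 and 31.1 CPM (log2FC 0.202 ± 0.12, adjusted p = 0.216). Col-0 at 37 DAS was the lowest group for this gene too. An antisense gene that overlaps it by 942 bases had 0 counts in all libraries.

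**Figure D3:**
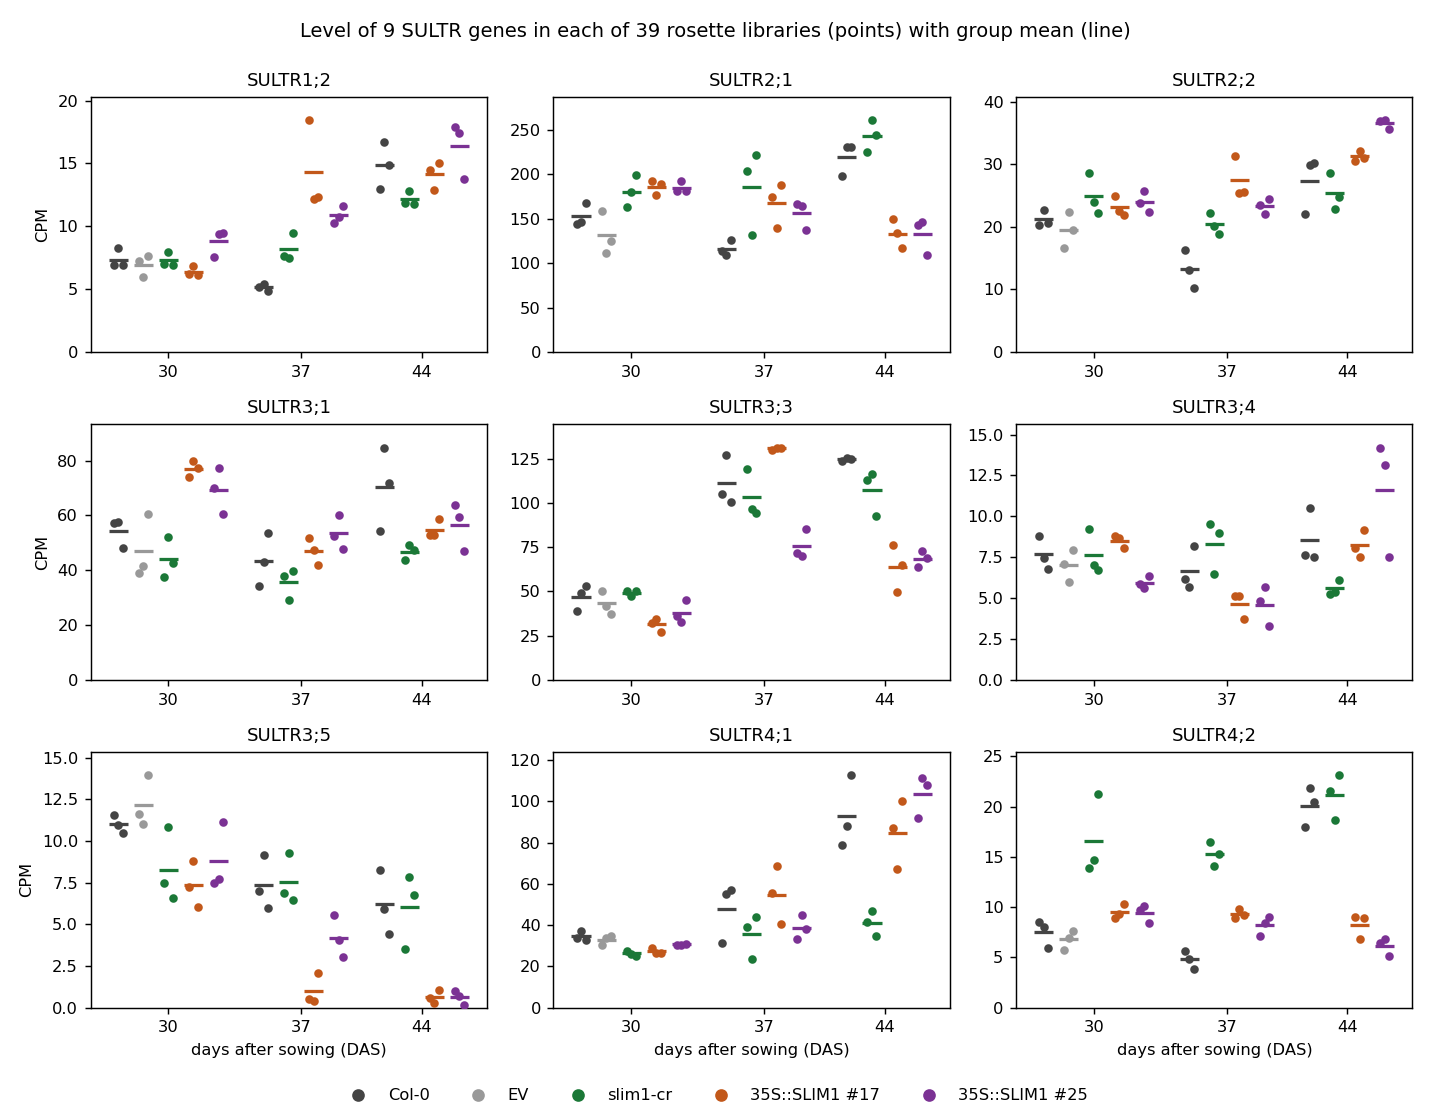
CPM of 9 sulfate transporter genes in each of the 39 libraries, 1 panel per gene, by genotype and age, with points for libraries and a line at the mean of each group of 3. *SULTR3;5* falls to about or below 1 CPM in the overexpression lines at 44 DAS, and *SULTR4;2* is lowest in Col-0 at 37 DAS.

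Group 3 held the widest gap between genotypes. *SULTR3;5*, which assists *SULTR2;1*, had 11.6, 10.96 and 10.5 CPM in Col-0 at 30 DAS and no genotype was called there. All libraries of *35S::SLIM1* #17 already lay below those of Col-0 at that age. This line passed with EV in place of Col-0 (log2FC -0.72, adjusted p = 0.0281). It also passed when only the 2 groups compared were fitted (log2FC -0.57, adjusted p = 0.0282). At 37 DAS the Col-0 libraries held 6.998, 9.15 and 6.01 CPM and those of *35S::SLIM1* #17 0.5005, 0.409 and 2.11 CPM (log2FC -2.88 ± 0.52, adjusted p = 0.00219). Without replicate 3 of line #17, the highest of the group, the log2FC was -3.999 (adjusted p = 6.69e-05). Line #25 still had 5.54, 4.05 and 3.03 CPM at 37 DAS (log2FC -0.83 ± 0.47, adjusted p = 0.247), below every Col-0 library but not called. At 44 DAS the gene was at 8.28, 5.91 and 4.44 CPM in Col-0, 0.604, 0.256 and 1.06 CPM in line #17 (log2FC -3.27 ± 0.601, adjusted p = 0.00185) and 0.988, 0.721 and 0.159 CPM in line #25 (log2FC -3.27 ± 0.603, adjusted p = 0.001504). Both lines were then close to the lower end of what was counted, with all 6 libraries under all 3 of Col-0. The calls at 44 DAS held in every alternative run. In *slim1-cr* at 44 DAS it had 3.52, 7.87 and 6.75 CPM (log2FC -0.02 ± 0.53, adjusted p = 0.983). The highest group mean of the 13 was 19.6 times the lowest.

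The overexpression lines differed at 37 DAS for this gene, with line #25 above line #17 (log2FC 2.05 ± 0.51, adjusted p = 0.0376). The call was lost without any 1 of 5 of the 6 libraries (*35S::SLIM1* #17 37 DAS replicates 1 and 2 and *35S::SLIM1* #25 37 DAS replicates 1, 2 and 3, log2FC 1.69 to 2.24, adjusted p 0.0682 to 0.1304), and when only the 2 groups compared were fitted (adjusted p = 0.109). Leaving out the libraries high in flower organ markers left 1 library of line #25, and the log2FC was 2.44. Without replicate 3 of line #17 at 37 DAS, the difference was a log2FC of 3.16 (adjusted p = 0.00123).

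*SULTR3;3*, a group 3 carrier placed in the chloroplast envelope, behaved differently in the 2 lines at 37 DAS. It had 105, 127 and 101 CPM in Col-0, 130.1, 131 and 131 CPM in line #17 (log2FC 0.24 ± 0.12, adjusted p = 0.1502) and 71.9, 70.2 and 85.5 CPM in line #25 (log2FC -0.57 ± 0.12, adjusted p = 0.00787). The libraries of line #17 lay above those of Col-0 and those of line #25 below, and the difference between the lines was itself called (log2FC -0.81 ± 0.12, adjusted p = 0.00638). Leaving out the libraries high in flower organ markers left 1 library of line #25 at 37 DAS. The log2FC was then -0.70 against Col-0 and -0.89 between the lines. At 44 DAS both lines were lower, with 76.3, 49.8 and 65.2 CPM in line #17 (log2FC -0.96 ± 0.14, adjusted p = 0.000521) and 63.9, 72.7 and 68.9 CPM in line #25 (log2FC -0.83 ± 0.14, adjusted p = 0.000931) against 124, 125 and 125 CPM in Col-0. These 2 calls held in every alternative run. At 30 DAS line #17 had 32.1, 34.5 and 27.3 CPM against 39.1, 48.9 and 53.3 CPM (log2FC -0.58 ± 0.14, adjusted p = 0.0286). The call was lost without any 1 of 5 of the 6 libraries (*35S::SLIM1* #17 30 DAS replicates 1, 2 and 3 and Col-0 30 DAS replicates 2 and 3, log2FC -0.65 to -0.48, adjusted p 0.0616 to 0.118).

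*SULTR3;1*, known for sulfate uptake into chloroplasts, was lower in *slim1-cr* at 44 DAS, at 43.6, 49.3 and 47.3 CPM against 54.4, 84.8 and 71.8 CPM in Col-0 (log2FC -0.57 ± 0.16, adjusted p = 0.0478). The call was lost without any 1 of 4 of the 6 libraries (Col-0 44 DAS replicates 2 and 3 and *slim1-cr* 44 DAS replicates 1 and 3, log2FC -0.59 to -0.41, adjusted p 0.125 to 0.152), and when libraries were scaled by their totals alone, without a count filter and when only the 2 groups compared were fitted (adjusted p 0.0518 to 0.162). At 30 DAS both overexpression lines lay above Col-0 in all libraries without being called, with 74.2, 79.7 and 77.3 CPM in line #17 (log2FC 0.51 ± 0.16, adjusted p = 0.0676) and 69.8, 77.3 and 60.5 CPM in line #25 (log2FC 0.36 ± 0.16, adjusted p = 0.182) against 57.1, 57.7 and 48.2 CPM. Line #17 did pass with DESeq2 (adjusted p = 0.0258) and with EV in place of Col-0 (adjusted p = 0.0106). It also passed without the libraries high in flower organ markers (adjusted p = 0.0356) and when only the 2 groups compared were fitted (adjusted p = 0.0121). *SULTR3;4*, a group 3 member also known as a distributor of phosphate, was called against Col-0 in no genotype at any age, with 3.31 to 14.2 CPM over the 39 libraries. It passed in some alternative runs, in line #17 at 37 DAS and in *slim1-cr* and line #25 at 44 DAS. It overlaps *MFP1* on the opposite strand by 140 bases, and that gene had 1607 to 10505 counts per library. The libraries were stranded, and were mapped with the program's default settings, whose use of strand is not spelled out in the sources used here, so reads of this overlap cannot be assigned to either gene.

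The group 4 carriers, which release sulfate from the vacuole, went apart in *slim1-cr*. *SULTR4;2* was higher there at 30 DAS, with 13.9, 14.7 and 21.2 CPM against 8.53, 8.06 and 5.92 CPM (log2FC 1.15 ± 0.17, adjusted p = 0.00618), and at 37 DAS, with 16.4, 14.1 and 15.3 CPM against 5.69, 4.87 and 3.895 CPM (log2FC 1.65 ± 0.14, adjusted p = 0.000704). At 44 DAS it had 21.6, 18.6 and 23.1 CPM in *slim1-cr* and 17.9, 21.9 and 20.4 CPM in Col-0 (log2FC 0.09 ± 0.15, adjusted p = 0.658), so that the libraries overlapped. The call at 30 DAS was lost when only the 2 groups compared were fitted (adjusted p = 0.162). The call at 37 DAS held in every alternative run.

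In the overexpression lines the same gene was higher at 37 DAS and lower at 44 DAS. At 37 DAS line #17 had 8.92, 9.798 and 9.18 CPM (log2FC 0.95 ± 0.14, adjusted p = 0.000721) and line #25 7.16, 8.398 and 9.003 CPM (log2FC 0.75 ± 0.14, adjusted p = 0.00343), all above Col-0. At 44 DAS line #17 had 9.01, 6.84 and 8.93 CPM (log2FC -1.27 ± 0.15, adjusted p = 0.000164) and line #25 6.398, 6.84 and 5.14 CPM (log2FC -1.68 ± 0.16, adjusted p = 2.91e-05), all below Col-0. Leaving out the libraries high in flower organ markers left 1 library of line #25 at 37 DAS, where the log2FC was 0.68. At 30 DAS neither line was called, with 8.41 to 10.4 CPM over their 6 libraries. The gene overlaps AT3G12510 by 7 bases, whose counts ran from 71 to 340.

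*SULTR4;1*, the more abundant of the pair, was lower in *slim1-cr*. At 30 DAS it had 27.7, 26.1 and 25.2 CPM against 33.6, 37.3 and 32.9 CPM in Col-0 (log2FC -0.38 ± 0.08, adjusted p = 0.0188) and at 44 DAS 41.6, 46.7 and 34.7 CPM against 78.8, 87.9 and 113 CPM (log2FC -1.16 ± 0.17, adjusted p = 0.0272). At 37 DAS *slim1-cr* had 38.9, 23.6 and 44.2 CPM and Col-0 31.4, 55.1 and 56.96 CPM (log2FC -0.45 ± 0.29, adjusted p = 0.348), with overlapping libraries. The call at 30 DAS was lost without Col-0 30 DAS replicate 2 (log2FC -0.32, adjusted p = 0.1001), and when all 13 groups were fitted together and when only the 2 groups compared were fitted (adjusted p 0.212 to 0.299). The call at 44 DAS was lost without any 1 of 4 of the 6 libraries (Col-0 44 DAS replicates 2 and 3 and *slim1-cr* 44 DAS replicates 1 and 3, log2FC -1.197 to -1.01, adjusted p 0.0773 to 0.1205), and when only the 2 groups compared were fitted (adjusted p = 0.162). Line #17 was lower at 30 DAS with 28.9, 26.7 and 26.3 CPM (log2FC -0.33 ± 0.08, adjusted p = 0.0222). That call was lost without any 1 of 3 of the 6 libraries (*35S::SLIM1* #17 30 DAS replicates 2 and 3 and Col-0 30 DAS replicate 2, log2FC -0.31 to -0.27, adjusted p 0.05097 to 0.119), and when all 13 groups were fitted together (adjusted p = 0.384). Neither overexpression line was called at 37 or 44 DAS, where line #17 had 87.2, 67.3 and 100.0 CPM and line #25 91.7, 111 and 108 CPM at the later age.

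The 2 overexpression lines were also compared directly. At 30 DAS no member was called between them (background 1.69% with 0.735% higher and 0.957% lower), although DESeq2 called 2. An unadjusted p under 0.05 was found for 3 of 9 members and 3588 of all 20274 genes. At 37 DAS the called members were the 2 group 3 genes already described (background 8.25% with 3.9% higher and 4.35% lower). At 44 DAS no member was called (background 0.00976% with 0.00976% higher and 0% lower), and DESeq2 called none. There 2 of 9 members and 1528 of all 20499 genes had an unadjusted p under 0.05. A difference that misses the threshold does not show that the lines were alike.

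Markers of mesophyll and of leaf senescence also differed between genotypes. At 44 DAS the 6 mesophyll markers summed to 31442 to 41255 CPM in Col-0, 44034 to 49919 in *slim1-cr*, 12046 to 17430.2 in line #17 and 8503 to 10805 in line #25, and 0, 5 and 6 of 6 were called lower in the 3 altered genotypes in that order, against 3.97%, 20.6% and 23.2% of all genes. The 8 senescence markers summed to 102 to 214 CPM in Col-0, 48.6 to 207 in *slim1-cr*, 431 to 1216 in line #17 and 875 to 1542 in line #25, and 0, 4 and 8 of 8 were called higher, against 6.21%, 19.8% and 22.8% of all genes. At 37 DAS 3 of 8 were lower in *slim1-cr*, where 4.14% of all genes were, while 5 and 4 of 8 were higher in lines #17 and #25, against 19.8% and 12.5%. None of the mesophyll or senescence markers was at 0 in any group. Their part in the levels of the sulfate transporters was not tested.

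Ageing was compared within each genotype, in a fit of all 13 groups. From 30 to 44 DAS 6 of 9 members rose in Col-0 and none fell (background 67.3% with 33.2% higher and 34% lower of 21040 genes). The share called in either direction was close to that of all genes. The largest rises were those of the vacuolar genes, *SULTR4;1* by a log2FC of 1.43 ± 0.21 (adjusted p = 8.19e-07) and *SULTR4;2* by 1.42 ± 0.16 (adjusted p = 1.87e-08), together with *SULTR3;3* at 1.404 ± 0.15 (adjusted p = 3.33e-09). The root carrier *SULTR1;2* rose by 1.01 ± 0.14 (adjusted p = 3.73e-07) and *SULTR2;1* by 0.52 ± 0.15 (adjusted p = 0.00351). The smallest rise was that of *SULTR2;2* (log2FC 0.37 ± 0.13, adjusted p = 0.01703), where the libraries of the 2 ages overlapped. The call was lost without any 1 of 2 of the 6 libraries (Col-0 44 DAS replicates 2 and 3, log2FC 0.29 to 0.31, adjusted p 0.07203 to 0.0889), and when libraries were scaled by their totals alone (adjusted p = 0.0685).

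The path between these ages was not even in Col-0. From 30 to 37 DAS 1 member rose and 4 fell (background 35.8% with 19.8% higher and 16% lower), and from 37 to 44 DAS 6 rose and none fell (background 51.2% with 24.5% higher and 26.8% lower). *SULTR4;2* fell by 0.64 on the log2 scale and then rose by 2.06 (adjusted p = 0.003603 and 2.18e-10). *SULTR1;2* fell by 0.51 and rose by 1.53 (adjusted p = 0.00592 and 2.06e-09). Col-0 at 37 DAS was thus the low point for 4 members, and *SULTR3;3* was the member that rose early (log2FC 1.24 ± 0.14, adjusted p = 6.89e-07). Of the 4 falls that of *SULTR2;1* was lost without any 1 of the 6 libraries (log2FC -0.46 to -0.31, adjusted p 0.0527 to 0.168), and when libraries were scaled by their totals alone and without a count filter (adjusted p 0.0595 to 0.194).

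**Figure D4:**
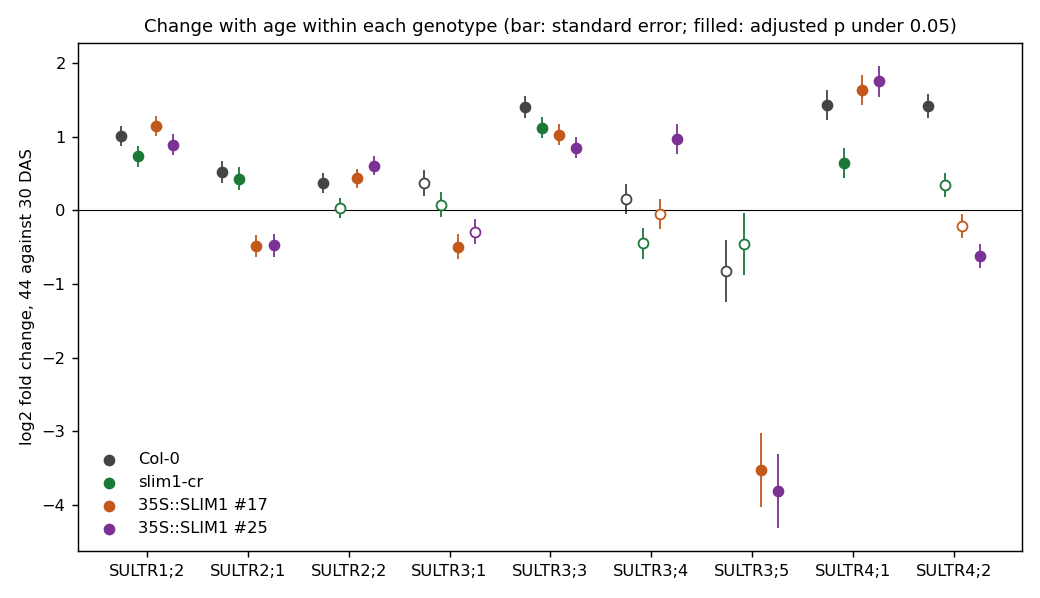
Log2 fold change from 30 to 44 DAS of the 9 tested sulfate transporter genes within each of 4 genotypes, with the standard error as bars, filled markers at an adjusted p under 0.05 and open markers otherwise. *SULTR4;2* lies at 1.42 in Col-0 and at -0.62 in line #25, and *SULTR3;5* falls below -3 in both overexpression lines.

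In *slim1-cr* 4 members rose from 30 to 44 DAS and none fell (background 52.1% with 26.8% higher and 25.3% lower), with *SULTR3;3* at 1.13 ± 0.14 (adjusted p = 3.18e-07), *SULTR1;2* at 0.73 ± 0.14 (adjusted p = 7.46e-05), *SULTR4;1* at 0.64 ± 0.21 (adjusted p = 0.0104) and *SULTR2;1* at 0.43 ± 0.15 (adjusted p = 0.0186). The vacuolar gene lost its call without *slim1-cr* 44 DAS replicate 2 (log2FC 0.53, adjusted p = 0.0659). The vascular gene lost its call without any 1 of 3 of the 6 libraries (*slim1-cr* 30 DAS replicates 1 and 2 and *slim1-cr* 44 DAS replicate 2, log2FC 0.37 to 0.42, adjusted p 0.0525 to 0.0867), and when libraries were scaled by their totals alone and when only the 2 groups compared were fitted (adjusted p 0.0517 to 0.0595). From 30 to 37 DAS 1 member rose (background 13.6% with 8.02% higher and 5.6% lower), and from 37 to 44 DAS 3 rose and 1 fell (background 41.6% with 21.4% higher and 20.2% lower).

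In the overexpression lines some members rose with age and others fell, as in all genes. In line #17 4 members rose and 3 fell from 30 to 44 DAS (background 73.4% with 36.8% higher and 36.6% lower), and in line #25 5 rose and 3 fell (background 73.5% with 36.5% higher and 37% lower). These shares were near those of all genes and so tell nothing particular to the family. *SULTR4;1* rose in both, by 1.63 ± 0.21 (adjusted p = 5.96e-08) and 1.76 ± 0.21 (adjusted p = 1.85e-08), as did *SULTR1;2*, *SULTR2;2* and *SULTR3;3*. *SULTR2;1* fell by 0.48 in line #17 and by 0.48 in line #25 on the log2 scale (adjusted p = 0.00597 and 0.00636). The fall in line #25 was lost without *35S::SLIM1* #25 44 DAS replicate 3 (log2FC -0.35, adjusted p = 0.0577). The group 3 gene *SULTR3;5* fell furthest, with log2FC -3.53 ± 0.499 and -3.81 ± 0.503 (adjusted p = 3.47e-07 and 1.14e-07). In line #17 its log2FC was -4.11 without replicate 3 at 44 DAS (adjusted p = 8.24e-07). *SULTR4;2* fell in line #25 (log2FC -0.62 ± 0.16, adjusted p = 0.00118) and was not called in line #17 (log2FC -0.21 ± 0.16, adjusted p = 0.246). *SULTR3;4* rose in line #25 (log2FC 0.97 ± 0.21, adjusted p = 0.000143) and was not called in line #17 (log2FC -0.05 ± 0.21, adjusted p = 0.845), and *SULTR3;1* fell in line #17 (log2FC -0.496 ± 0.17, adjusted p = 0.0108). The latter call was lost when libraries were scaled by their totals alone (adjusted p = 0.0518).

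The steps through 37 DAS were counted in the same way, with no test of the difference between the lines. From 30 to 37 DAS 3 members rose and 3 fell in line #17 (background 60.4% with 30.4% higher and 29.9% lower), and 1 rose in line #25 (background 32.9% with 19.1% higher and 13.8% lower). From 37 to 44 DAS 2 rose and 1 fell in line #17 (background 46.9% with 20.2% higher and 26.8% lower), and 4 rose and 2 fell in line #25 (background 65.8% with 29.3% higher and 36.5% lower).

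The genes whose group means on a log2 scale were most like each member over the 13 groups, among 17326 genes, are given as a description, since groups share an age or a line with each other. *SULTR4;1* ran closest to AT1G72120 (r = 0.98) and *SHM6* (r = 0.98), and *SULTR3;5* to AT1G64680 (r = 0.98) and AT3G16010 (r = 0.98). *SULTR3;3* was most like *SLAH2* (r = 0.96) and AT1G65240 (r = 0.95), and *SULTR1;2* most like *MBD02* (r = 0.95) and AT1G17640 (r = 0.95). For *SULTR4;2* the closest were AT3G57320 (r = 0.95) and *SULTR2;1* (r = 0.91), the closest pair among the members. For *SULTR2;1* the second was *ORTHL* (r = 0.91). *SULTR2;2* was nearest to AT3G50840 (r = 0.91) and *MBD02* (r = 0.90), *SULTR3;4* to AT3G21670 (r = 0.91) and *AAE7* (r = 0.91), and *SULTR3;1* to AT1G78890 (r = 0.82) and *PYD4* (r = 0.78). The least alike members were *SULTR1;2* and *SULTR3;5* (r = -0.76).

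The order of the 13 groups is set by few clear steps. For *SULTR2;1* the highest group, *slim1-cr* at 44 DAS, had a mean 2.096 times that of the lowest, Col-0 at 37 DAS, and 1 of 12 neighbouring pairs did not overlap, that of Col-0 at 44 DAS above line #17 at 30 DAS. For *SULTR4;2* the same 2 groups were the extremes, 4.38 times apart, and the 3 *slim1-cr* groups with Col-0 at 44 DAS lay clear of the 9 others. For *SULTR4;1* the highest group was line #25 at 44 DAS and the lowest *slim1-cr* at 30 DAS, 3.94 times apart. For *SULTR3;3* the highest was line #17 at 37 DAS and the lowest line #17 at 30 DAS, 4.18 times apart. *SULTR3;1*, *SULTR2;2* and *SULTR3;4* spanned 2.16, 2.77 and 2.53 times, and for the first of these every neighbouring pair overlapped.

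The genes downstream of sulfate uptake were read from fixed lists, for the same comparisons with Col-0. The list of sulfate activation and reduction holds 12 genes for ATP sulfurylases (*APS*), APS reductases (*APR*), sulfite reductase and APS kinases (*APK*). At 30, 37 and 44 DAS the shares of all genes called higher were 2.63%, 1.4% and 6.21% in *slim1-cr*, 3.79%, 19.8% and 19.8% in line #17 and 3.55%, 12.5% and 22.8% in line #25. The shares called lower were 2.12%, 4.14% and 3.97% in *slim1-cr*, 3.17%, 17% and 20.6% in line #17 and 2.83%, 9.74% and 23.2% in line #25. In *slim1-cr* 1, 3 and 4 of 12 were higher at 30, 37 and 44 DAS and none lower (median log2FC 0.23, 0.44 and 0.22). In line #17 3, 5 and 7 were higher, with 1 lower at 37 DAS (medians 0.27, 0.42 and 0.46), and in line #25 1, 2 and 6, with 1 lower at 30 DAS (medians -0.06, 0.07 and 0.403). The median log2FC of all genes tested lay between -0.02 and 0.03 in each of these comparisons. *APR1*, for the reductase that commits sulfate to assimilation, was at 63.98, 62.2 and 71.2 CPM in Col-0, 192, 161 and 205 CPM in *slim1-cr* (log2FC 1.52 ± 0.13, adjusted p = 0.000399), 128, 161 and 159 CPM in line #17 (log2FC 1.196 ± 0.13, adjusted p = 9.24e-05) and 175, 198 and 188 CPM in line #25 (log2FC 1.54 ± 0.13, adjusted p = 1.79e-05) at 44 DAS. All altered genotypes thus stood above Col-0 for this gene.

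The miR395 target genes did not go one way. At 44 DAS in line #17 *APS3* was higher (log2FC 1.55 ± 0.26, adjusted p = 0.00107) and *APS4* too (log2FC 1.098 ± 0.27, adjusted p = 0.00834), whereas *SULTR2;1* was lower as given above. *APS1* was at log2FC -0.23 ± 0.19 (adjusted p = 0.359). In line #25 the values were 1.29 ± 0.26 for *APS3* and 1.32 ± 0.27 for *APS4* (adjusted p = 0.00232 and 0.00271), and -0.26 ± 0.19 for *APS1* (adjusted p = 0.296).

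**Figure D5:**
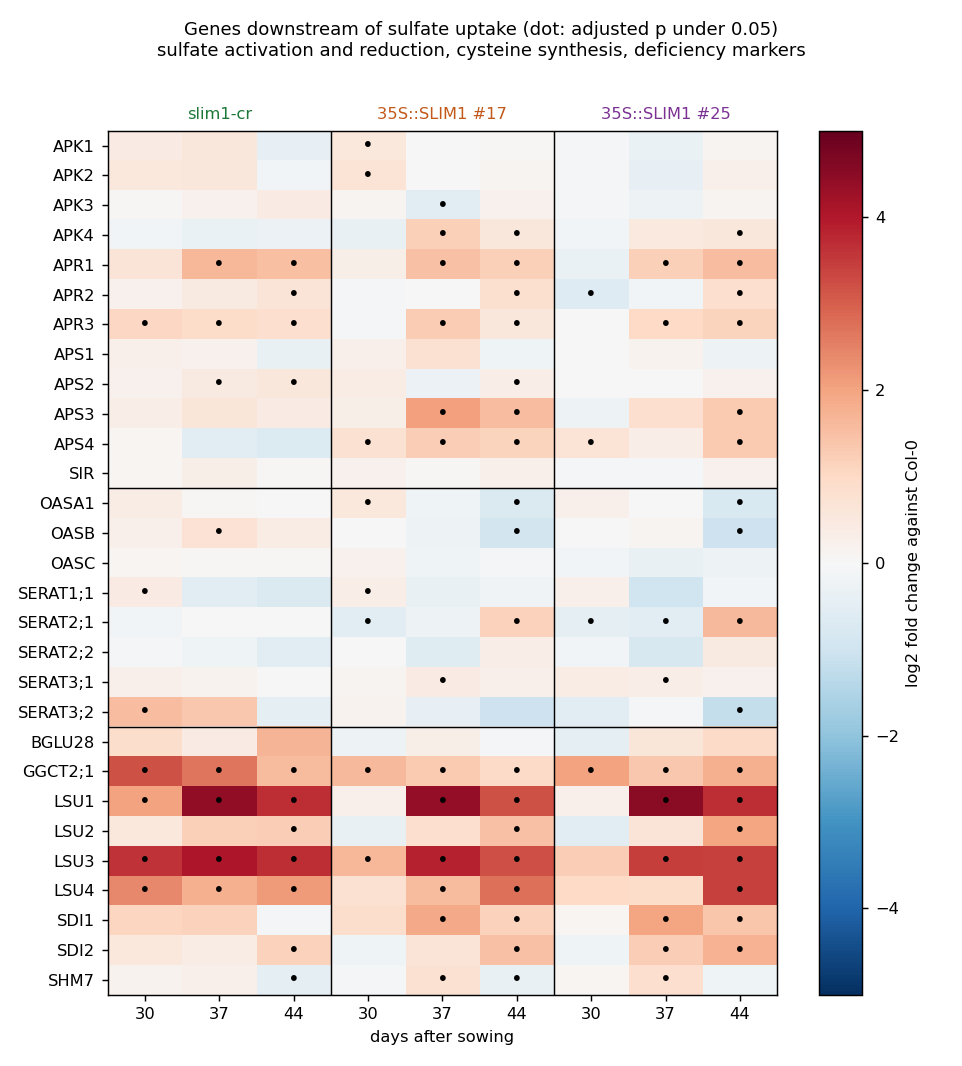
Log2 fold change against Col-0 of the same age for 12 genes of sulfate activation and reduction, 8 of cysteine synthesis and 9 sulfur deficiency markers, 1 row per gene and 1 column per genotype and age, with a scale from -5 to 5 and a dot where the adjusted p was under 0.05. *LSU1* and *LSU3* are the strongest rows, with values of 4.42 and 4.05 in *slim1-cr* at 37 DAS.

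Of the 9 sulfur deficiency markers, genes known to rise when sulfate is short, 4, 4 and 6 were higher in *slim1-cr* at 30, 37 and 44 DAS, against 2.63%, 1.4% and 6.21% of all genes, with 1 lower at 44 DAS (median log2FC 1.06, 1.21 and 1.58). In line #17 2, 6 and 7 were higher, against 3.79%, 19.8% and 19.8% of all genes, with 1 lower at 44 DAS (medians 0.24, 1.31 and 1.47), and in line #25 1, 6 and 7, against 3.55%, 12.5% and 22.8% (medians 0.11, 1.25 and 1.77). *LSU1* was at 1.08, 1.01 and 0.622 CPM in Col-0 at 37 DAS and at 18.4, 24.4 and 15.9 CPM in *slim1-cr* (log2FC 4.42 ± 0.29, adjusted p = 7.76e-05). It had 23.7, 15.8 and 16.6 CPM in line #17 (log2FC 4.38 ± 0.29, adjusted p = 1.28e-05) and 16.1, 22.3 and 24.3 CPM in line #25 (log2FC 4.51 ± 0.29, adjusted p = 7.27e-06). At 37 DAS *LSU1* was thus above Col-0 in all 3 altered genotypes, as were *SULTR1;2*, *SULTR2;2* and the vacuolar *SULTR4;2*. For these 3 transporters Col-0 at 37 DAS was the lowest of the 13 groups. The level of *SULTR4;2* itself did not rise from 30 to 37 DAS, with means of 6.80 and 6.25 CPM per kb in *slim1-cr*.

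Of the 8 genes of cysteine synthesis, 2, 1 and 0 were higher in *slim1-cr* at 30, 37 and 44 DAS, against 2.63%, 1.4% and 6.21% of all genes, and none was lower (medians 0.26, 0.07 and -0.004). In line #17 2, 1 and 1 were higher and 1, 0 and 2 lower (medians 0.16, -0.24 and -0.11), against 3.79%, 19.8% and 19.8% of all genes higher and 3.17%, 17% and 20.6% lower. In line #25 0, 1 and 1 were higher and 1, 1 and 3 lower (medians -0.07, -0.201 and -0.196), against 3.55%, 12.5% and 22.8% higher and 2.83%, 9.74% and 23.2% lower. At 44 DAS *SERAT2;1*, a serine acetyltransferase gene, was higher in line #17 (log2FC 1.15 ± 0.21, adjusted p = 0.00166) and in line #25 (log2FC 1.63 ± 0.21, adjusted p = 0.000193), while *OASA1* and *OASB*, for O-acetylserine (thiol)lyases, were lower in both, and *SERAT3;2* in line #25. *OASB* was at log2FC -0.8997 ± 0.12 in line #17 (adjusted p = 0.000247) and -1.05 ± 0.12 in line #25 (adjusted p = 7.90e-05). Of the 4 other genes of the transporter family, *MOT1* and *MOT2*, for molybdate carriers, were called in some comparisons with Col-0. *MOT2* was higher at 37 and 44 DAS in line #17 (log2FC 0.88 ± 0.14 and 1.28 ± 0.12, adjusted p = 0.000945 and 4.62e-05) and in line #25 (0.72 ± 0.14 and 1.16 ± 0.12, adjusted p = 0.00366 and 5.41e-05). *MOT1* was lower in *slim1-cr* at 30 DAS (log2FC -0.54 ± 0.13, adjusted p = 0.0372) and higher there at 44 DAS (log2FC 0.81 ± 0.21, adjusted p = 0.0423), and it was lower in line #17 at 37 DAS (log2FC -0.804 ± 0.21, adjusted p = 0.0128). *SULTR1;3* had 0 to 23 counts per library. In EV none of the genes of these lists was called.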

How the data were processed

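The deposited table holds raw read counts per gene, which the authors made from paired polyA reads (DNBseq) by trimming with SOAPnuke and mapping in CLC Genomics Workbench to TAIR10 with Araport11 genes. Mapping used default settings, and how strand was used in the counting is not spelled out in the sources used here. A second deposited table of normalized signal, which the study's methods link to DESeq2 1.40.2, was used only to check the columns: it equals the counts over 1 factor per library (largest relative deviation 5.3e-10). Library totals, 38352119 to 46190529 counts, set the precision, and limits from counts cover counting error only.

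Genes were tested with the quasi-likelihood F test of edgeR 4.0.16 (R 4.3.3, filterByExpr, TMM factors, robust fit), 1 fit per age for genotypes and 1 fit of all 13 groups for ageing and for changes of a difference between ages. The Benjamini-Hochberg method adjusted p-values over every gene in a fit, and calls needed an adjusted p under 0.05. SE is the absolute log2FC over the root of F. CPM use TMM factors over the 39 libraries. The scripts were tested on simulated data. Alternatives were DESeq2 1.42.0, RLE factors, library totals alone, no or a stricter count filter (50 counts), other sets of groups in the fit, EV in place of Col-0, a replicate block and leaving out each library. The alternative without libraries above 30 CPM of flower organ markers was chosen after seeing the data. Named genes were the 10 members, *SLIM1*, up to 4 called genes of each pathway list and the 2 genes most like each member. The members and lists were chosen with earlier results of these data known. Replicates were individual rosettes. In none of 22 pairs of groups of 1 age did all 3 same-numbered pairs of libraries deviate together (correlation over 0.1, range -0.55 to 0.62), so the numbers were not taken as pairs. The 39 replicate pairs differed by more than counting noise (chi-square per degree of freedom 8.55 to 161.8). No value column lacked a sample. Sequences came from RefSeq, assembly TAIR10.1, whose 5 chromosome lengths were checked. Figures were drawn with matplotlib 3.10.9.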

Additional observations from a re-analysis of the deposited data

Results flagged for a closer look

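The difference of a member from Col-0 changed between ages in 17 cases, tested as an interaction in the fit of all 13 groups (edgeR, adjusted p under 0.05). All rest on the same Col-0 libraries, so the lines are not independent of each other. From 30 to 37 DAS no member changed in *slim1-cr* (background 0.0665% with 0.019% higher and 0.0475% lower), and DESeq2 called none. An unadjusted p under 0.05 was found there for 3 of 9 members and 3217 of all 21040 genes. In *35S::SLIM1* #17 4 members changed (background 24.5% with 14.1% higher and 10.4% lower): *SULTR1;2* by 1.68 ± 0.199 (adjusted p = 6.57e-07), *SULTR2;2* by 0.93 ± 0.19 (adjusted p = 0.000649), *SULTR3;3* by 0.83 ± 0.202 (adjusted p = 0.00347) and *SULTR3;5* by -2.296 ± 0.63 (adjusted p = 0.00813). The last was -3.43 without replicate 3 of line #17 at 37 DAS (adjusted p = 0.000150). In *35S::SLIM1* #25 2 members changed (background 14.8% with 8.34% higher and 6.5% lower), *SULTR1;2* by 0.82 ± 0.198 (adjusted p = 0.00448) and *SULTR2;2* by 0.65 ± 0.19 (adjusted p = 0.0194). Leaving out the libraries high in flower organ markers left 1 library of line #25 at 37 DAS, and the change of *SULTR1;2* was 0.79. The call of *SULTR2;2* was lost without any 1 of 3 of the 12 libraries (*35S::SLIM1* #25 30 DAS replicate 3, Col-0 30 DAS replicate 2 and Col-0 37 DAS replicate 3, log2FC 0.49 to 0.57, adjusted p 0.0587 to 0.0866), and when libraries were scaled by their totals alone (adjusted p = 0.135).

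From 30 to 44 DAS 1 member changed in *slim1-cr* (background 6.81% with 4.35% higher and 2.46% lower), *SULTR4;2* by -1.07 ± 0.23 (adjusted p = 0.0109). In line #17 4 changed (background 26.8% with 11.7% higher and 15.1% lower): *SULTR4;2* by -1.63 ± 0.23 (adjusted p = 1.62e-05), *SULTR2;1* by -1.004 ± 0.22 (adjusted p = 0.00112), *SULTR3;1* by -0.87 ± 0.24 (adjusted p = 0.00868) and *SULTR3;5* by -2.701 ± 0.64 (adjusted p = 0.00278). In line #25 6 changed (background 30.2% with 11.7% higher and 18.5% lower): *SULTR4;2* by -2.04 ± 0.23 (adjusted p = 5.04e-07), *SULTR2;1* by -0.9997 ± 0.22 (adjusted p = 0.000877), *SULTR3;5* by -2.98 ± 0.65 (adjusted p = 0.000933), *SULTR3;1* by -0.66 ± 0.24 (adjusted p = 0.0387), *SULTR3;3* by -0.55 ± 0.202 (adjusted p = 0.0387) and *SULTR3;4* by 0.81 ± 0.29 (adjusted p = 0.0356). The call of *SULTR3;1* was lost without any 1 of 7 of the 12 libraries (*35S::SLIM1* #25 30 DAS replicates 1 and 2, *35S::SLIM1* #25 44 DAS replicates 2 and 3, Col-0 30 DAS replicate 3 and Col-0 44 DAS replicates 2 and 3, log2FC -0.67 to -0.52, adjusted p 0.0565 to 0.114), and when libraries were scaled by their totals alone (adjusted p = 0.141). That of *SULTR3;3* was lost without any 1 of 7 of the 12 libraries (*35S::SLIM1* #25 30 DAS replicate 3, *35S::SLIM1* #25 44 DAS replicates 1, 2 and 3, Col-0 30 DAS replicate 1 and Col-0 44 DAS replicates 1 and 3, log2FC -0.56 to -0.43, adjusted p 0.05698 to 0.124), and without the libraries high in flower organ markers and when libraries were scaled by their totals alone (adjusted p 0.104 to 0.134). That of *SULTR3;4* was lost without any 1 of 9 of the 12 libraries (*35S::SLIM1* #25 30 DAS replicates 1, 2 and 3, *35S::SLIM1* #25 44 DAS replicates 1 and 2, Col-0 30 DAS replicates 1 and 2 and Col-0 44 DAS replicates 1 and 3, log2FC 0.64 to 0.84, adjusted p 0.05004 to 0.112), and without the libraries high in flower organ markers (adjusted p = 0.0774).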

How the results depend on the processing

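Of 103 calls of a member among 279 tests, none turned its direction in any refit. Leaving out 1 library ended 94 of 720 refits of these calls (23 calls), and other settings ended 50 of 829 (28 calls). Of 2735 refits of the other tests, 68 passed the threshold. These counts include refits without the flower-marker libraries, which left 1 library of line #25 at 37 DAS. Scaling by library totals alone shifted the median of all genes by up to 0.21 on the log2 scale against TMM.

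The number of members called against Col-0 moved by over 1.5 times as follows. For *slim1-cr* at 30 DAS (2) it was 1 with all 13 groups in 1 fit and 0 with only the 2 groups compared. At 37 DAS (3) it was 1 without the libraries high in flower markers, with library totals alone, without a count filter and with only the 2 groups. At 44 DAS (2) it was 1 with library totals alone, without a filter and with the replicate block, and 0 with only the 2 groups. For line #17 at 30 DAS (2) it was 5 against EV, 1 with all 13 groups, 4 with only the 2 groups and 1 with the replicate block. For line #25 at 30 DAS (0) it was 1 against EV and 1 with only the 2 groups. Between the lines at 30 DAS (0) it was 2 with DESeq2, 2 without the flower-marker libraries and 1 with only the 2 groups, and at 37 DAS (2) it was 1 with only the 2 groups and 1 with the replicate block. For ageing it moved in line #25 from 30 to 37 DAS (1), to 2 with DESeq2, RLE factors and library totals alone and to 4 with only the 2 groups. In *slim1-cr* it moved from 30 to 37 DAS (1) to 2 without the flower-marker libraries, and from 37 to 44 DAS (4) to 2 with library totals alone and with only the 2 groups. The change of line #25 from 30 to 37 DAS (2) became 1 with library totals alone. Counts for line #25 at 37 DAS without the flower-marker libraries rest on 1 library of that group and are left out here. The causes were not tested.

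Leaving out 1 library gave 1 to 2, 1 to 2 and 0 to 2 calls in *slim1-cr* at 30, 37 and 44 DAS, 0 to 2, 4 to 5 and 4 to 5 in line #17, and 0 to 0, 4 to 4 and 5 to 6 in line #25. It gave 1 to 3 between the lines at 37 DAS, and 0 to 0 there at 30 and 44 DAS and in EV. For ageing (37 v 30, 44 v 37, 44 v 30 DAS) it gave 4 to 5, 6 to 6 and 5 to 7 in Col-0, 1 to 2, 1 to 3 and 2 to 5 in *slim1-cr*, 6 to 6, 2 to 4 and 7 to 7 in line #17, and 1 to 2, 5 to 6 and 7 to 8 in line #25. For changes from 30 to 37 and to 44 DAS it gave 0 to 1 and 1 to 2 in *slim1-cr*, 4 to 5 and 4 to 4 in line #17, and 1 to 2 and 3 to 5 in line #25.

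The replicate block, run although the numbers do not pair the libraries, also ended the calls of *SULTR3;3* in line #17 at 30 DAS, *SULTR1;2* in *slim1-cr* at 37 DAS, *SULTR3;1* in *slim1-cr* at 44 DAS and *SULTR3;5* between the lines at 37 DAS, and no other call.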
